A study of Mus musculus with 12 samples.

Results

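The genes described here encode the proteins of the mitochondrial ribosome (mitoribosome), and were followed in mouse T helper 1 (Th1) cells. Members were chosen by symbol alone: every gene symbol that starts with Mrpl or Mrps and a digit was taken, except 1 name holding -ps. This gave 75 of the 18929 gene symbols, 46 named for the large subunit (Mrpl) and 29 named for the small subunit (Mrps). T cells of strain C57BL/6 were kept in Th1 culture for 5 days, cells were sorted, and total RNA was sequenced. The control group holds 3 libraries of wild-type (WT) genotype, and the comparison group holds 3 libraries labelled Sdhc cKO, where cKO stands for conditional knockout. Sdhc encodes a membrane anchor of the enzyme that oxidises succinate, known as complex II. No source used here gives the promoter that drives the Cre, the deleted exons or any treatment of the controls, and the labels do not say whether replicates are separate animals or cultures. The series has 6 samples of other groups, not analysed here. Libraries held 18144933 to 21983821 counted reads. Each value is the read count of a gene after division by the size factor of its library, and is called a normalised count.

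The mitoribosome is the machine in the mitochondrial matrix that translates the few proteins encoded by mitochondrial DNA, which are core subunits of the respiratory chain and of ATP synthase. Its ribosomal RNAs come from mitochondrial DNA, while its proteins are encoded in the nucleus, made in the cytosol and imported. Some of these proteins have counterparts in bacterial ribosomes and others are specific to mitochondria. T cells enlarge their mitochondria when they are activated, and mitochondrial translation is needed for their effector functions.

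In the Sdhc cKO libraries, mitoribosomal transcripts lay slightly below control in the median, with overlap between libraries, and no single member passed the test. Of the 75 members, 64 (85.3%) had a negative log2 fold change (cKO minus control, on the log2(normalised count + 1) scale), against 54.1% of all 12699 tested genes. The median log2 fold change was -0.11 over the members and -0.01 over all tested genes. The shift was small for each member: fold changes ran from -0.30 for Mrps28 to 0.26 for Mrpl9, and 72 of the 75 were within 0.25 of 0. With limma over all tested genes, 0 members passed an adjusted p of 0.05, as did 0 genes in all (0% of those tested). At an unadjusted limma p under 0.05 there were 2 members, Mrpl4 (lower) and Mrpl9 (higher), or 2.67%, and 445 genes, or 3.5% of those tested. On reads recovered from the values, edgeR called 0 genes and DESeq2 called 2, neither of them a member. All 75 members passed the filter on low values, so none was lost to it. In bulk RNA, fewer cells with a transcript and less transcript per cell cannot be told apart.

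**Figure D1:**
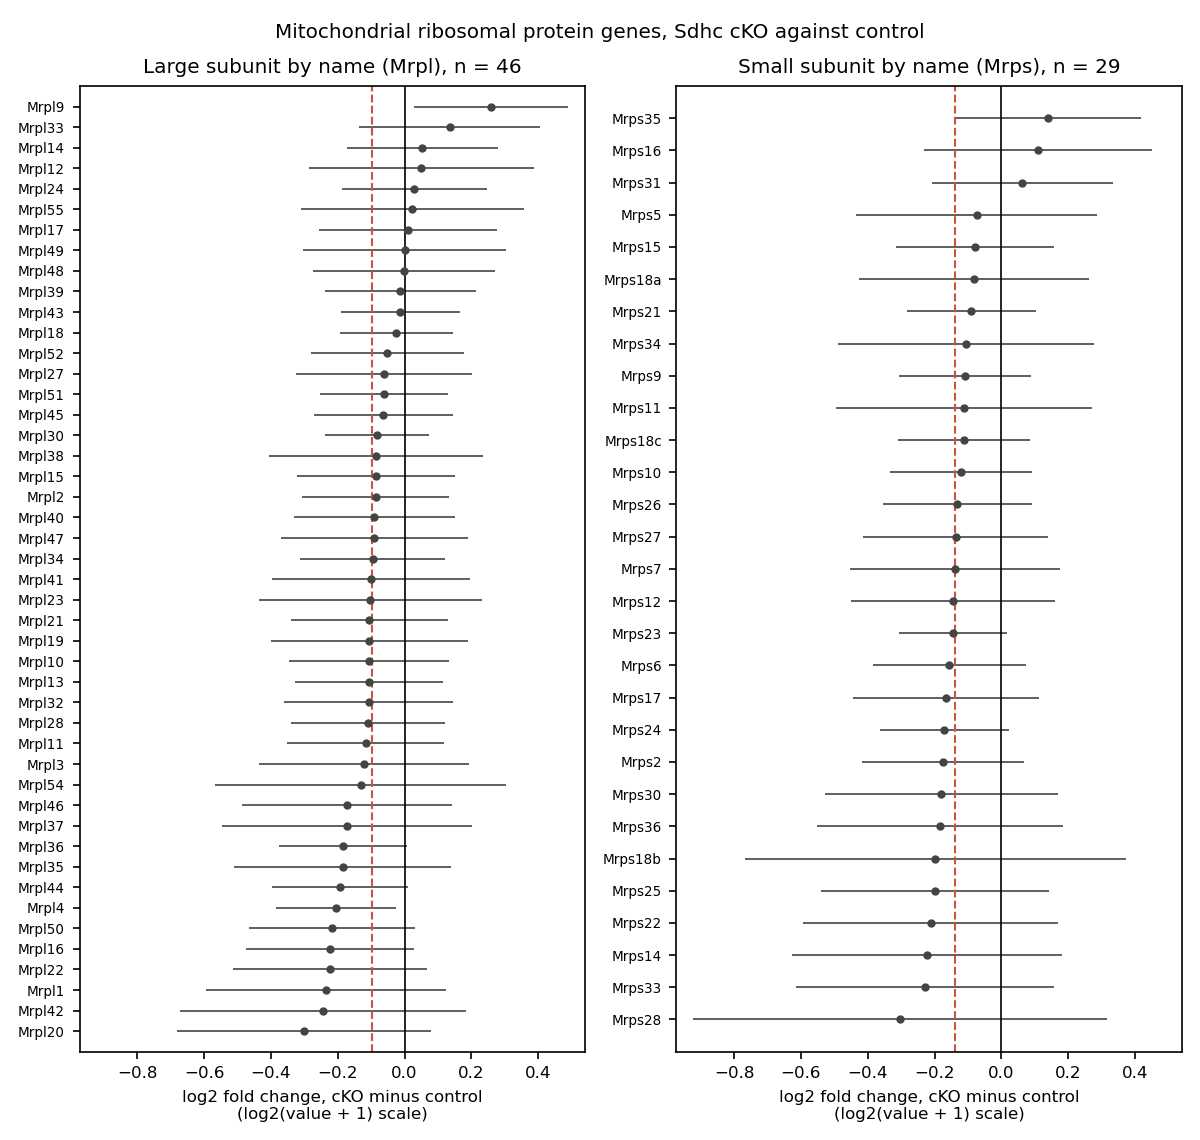
Log2 fold change (cKO minus control, log2(value + 1) scale) of each member, Mrpl on the left (n = 46) and Mrps on the right (n = 29), with 95% confidence intervals from limma; the dashed line marks the median of each group (-0.10 and -0.14) and the solid line marks 0. Most points lie left of 0, and the intervals of all members except Mrpl4 and Mrpl9 include 0.

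The checks of the libraries touch these values. Sdhc itself had 1683, 1602 and 1892 normalised counts in control libraries against 1452, 1562 and 1655 in cKO libraries, a log2 fold change of -0.15 (limma adjusted p = 0.978); a total over the whole gene cannot show the loss of some of its exons, so it does not check the deletion. The first principal component (49.1% of the variance) put control 1 and cKO 1 on the side opposite to the remaining libraries. The same pair had almost no reads on 4 Y-linked genes (Kdm5d, Ddx3y, Eif2s3y and Uty), with 0.048 and 0.207 RPM. Controls 2 and 3 had 131 and 55.1 RPM, and cKO 2 and cKO 3 had 193 and 189 RPM. Summed Th1 and CD4 T cell markers were at 33935 to 35587 normalised counts in control libraries and 33565 to 38353 in cKO libraries. Of the other lineages, summed markers overlapped between groups for CD8 T, B, NK, myeloid, dendritic and erythroid cells. Summed markers listed for gamma delta T cells (4 of 5 listed genes in the table) did not overlap, at 270 to 330 normalised counts in control libraries and 173 to 238 in cKO libraries. The 4 were Tcrg-C1, Tcrg-C2, Tcrg-C4 and Sox13. The delta chain gene Trdc was absent, so this sum cannot show how many such cells were present. The part of these genes in the members' shift was not tested.

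Taken as a sum, members held 0.226%, 0.239% and 0.239% of counted reads for the 3 controls, and 0.214%, 0.229% and 0.224% for the 3 cKO libraries. The lowest share was that of cKO 1 (Wilson 95% interval 0.212% to 0.216%) and the highest those of controls 2 and 3 (0.237% to 0.241% and 0.236% to 0.241%). These intervals cover counting error only. The groups overlapped, since control 1 lay below cKO 2. Mean shares were 0.235% ± 0.00722 for controls and 0.222% ± 0.00739 for cKO libraries (SD, n = 3 each).

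Large and small subunit genes had medians of the same sign. Of the Mrpl genes 38 of 46 (82.6%) had a negative fold change, with a median of -0.10, and of the Mrps genes 26 of 29 (89.7%), with a median of -0.14. Both medians were lowest in cKO 1 and highest in controls 2 and 3. As a median log2 deviation from the mean of the 6 libraries, the Mrpl genes stood at -0.06, 0.09 and 0.09 in controls 1 to 3 and at -0.13, 0.04 and -0.03 in cKO 1 to 3. The Mrps genes stood at -0.04, 0.11 and 0.15 for controls and at -0.18, 0.04 and -0.04 for cKO libraries. Control 1 was thus below cKO 2 and cKO 3 for both subunits, so the groups overlapped. The ratio of summed Mrpl to summed Mrps normalised counts was 1.94, 1.92 and 1.94 in control libraries against 2.02, 1.93 and 1.93 in cKO libraries, so only cKO 1 lay outside the controls. The medians of the subunits differed by 0.04, and without cKO 1 by a small amount in the other direction (-0.00293).

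**Figure D2:**
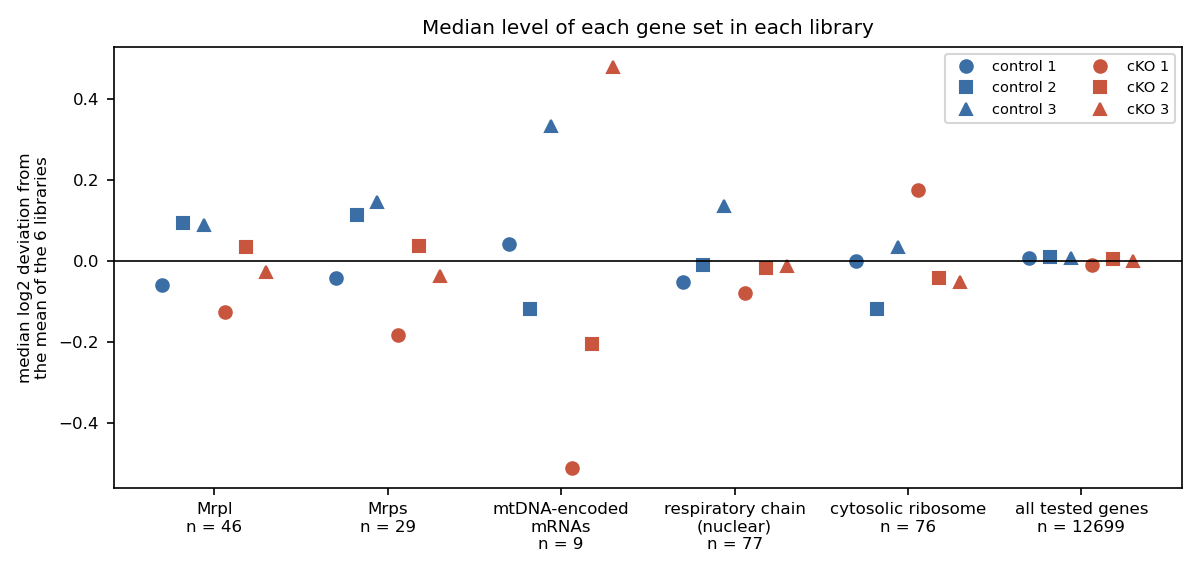
Median log2 deviation of 6 gene sets from the mean of the 6 libraries, with 1 point per library (blue control, red cKO; circle, square and triangle for replicates 1, 2 and 3). Both mitoribosomal subunits are lowest in cKO 1 and highest in controls 2 and 3, cytosolic ribosomal proteins are highest in cKO 1, and mitochondrially encoded mRNAs spread most widely.

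Library cKO 1 was the lowest of the 6 for 43 members (57.3%), while it was lowest for 32.0% of all tested genes. Control 3 was the highest for 31 members (41.3%, against 12.6% of all tested genes) and control 2 for 25. Members deviated together between libraries, so 1 library moves the count of negative fold changes for many of them at a time. Without cKO 1, 57 members had a negative fold change and the medians were -0.05 for Mrpl and -0.05 for Mrps. With both control 1 and cKO 1 left out, an alternative chosen after seeing the data, 67 members were negative, with medians of -0.12 and -0.12. Other scalings kept 60 to 63 members negative; upper-quartile scaling gave the 60, with medians of -0.06 for Mrpl and -0.10 for Mrps while the median of all genes moved to 0.02.

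Among the members, separation between groups was seen in the downward direction alone. In 9 members (12.0%) all 3 cKO libraries lay below all 3 controls, against 5.64% of tested genes. In 0 members all cKO libraries lay above, against 4.51% of tested genes. The 9 are Mrpl4, Mrpl16, Mrpl30, Mrpl36, Mrpl44 and Mrpl50 of the large subunit and Mrps6, Mrps23 and Mrps24 of the small subunit. This direction was not particular to the members. All cKO libraries lay below all controls in 7 of 77 nuclear-encoded respiratory chain genes (9.09%), and above in 0. Counts were 4 (20%) and 0 for 20 genes of mitochondrial transcription and RNA processing, and 3 (15%) and 0 for 20 aminoacyl-tRNA synthetase genes. They were 1 and 2 for 27 mitoribosome assembly genes, and 2 and 0 for 76 cytosolic ribosomal protein genes. Within same-numbered libraries (cKO 1 against control 1, and so on), 35 members (46.7%) were lower in all 3 pairs, against 21.8% of tested genes. Only Mrps35 was higher in all 3 pairs (1.33% of members, against 14.6% of tested genes). Lower in all 3 pairs were 45% of the transcription and RNA processing genes and 32.5% of the respiratory chain genes. The share was 22.2% for assembly genes and 15% for synthetase genes. With the replicate number as a block in limma, 0 members passed an adjusted p of 0.05, as did 1 gene (0.00787% of those tested). At an unadjusted p under 0.05 there were then 15 members (20%), against 12.6% of tested genes, and 14 of them were lower, against 8.01% of tested genes.

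Mrpl4, a protein of the peptide exit tunnel, separated the groups with the smallest unadjusted p of the members in the fit on genotype alone. The gene (chromosome 9, 21002738 to 21008839, plus strand, GRCm38) reached normalised counts of 944, 954 and 1011 in control libraries against 878, 841 and 803 in cKO libraries. Every cKO library lay below every control. The means were 969 ± 36.2 and 841 ± 37.5 (SD, n = 3 each), which put the cKO level at 86.7% of control. The log2 fold change was -0.21 (SE 0.08, 95% interval -0.39 to -0.03), with an unadjusted limma p of 0.0299 and an adjusted p of 0.978. With the replicate number as a block, its unadjusted limma p was 0.0178 (adjusted p = 0.323). Mrpl20 (unadjusted 0.0055, adjusted 0.283) and Mrpl16 (0.0140, 0.319) then had a smaller limma p. The 2-sided exact permutation p was 0.1, the smallest that 3 against 3 libraries allow. With any 1 library left out the fold change stayed between -0.24 and -0.17.

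Mrpl9, a large subunit protein with a bacterial counterpart, had the largest positive fold change. The gene lies on chromosome 3, 94443318 to 94451130, plus strand. It reached normalised counts of 962, 1006 and 1121 in control libraries against 1299, 1302 and 1100 in cKO libraries. Libraries cKO 1 and cKO 2 lay above all controls, and cKO 3 lay below control 3. The means were 1030 ± 81.9 and 1233 ± 116 (SD, n = 3 each), or 120% of control. The log2 fold change was 0.26 (SE 0.10, 95% interval 0.03 to 0.49; unadjusted limma p = 0.0328, adjusted p = 0.978), and the exact permutation p was 0.2. Of its exon bases, 5.81% are shared with another gene.

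In the members with the largest negative fold changes, cKO 1 was the lowest library. Mrps28, of the small subunit, had 184, 228 and 238 normalised counts in control libraries against 112, 237 and 199 in cKO libraries (log2 fold change -0.30, SE 0.27). Only cKO 1 lay below the controls, and without it the fold change was 0.01. Mrpl20, whose bacterial counterpart binds the large ribosomal RNA, had 455, 624 and 638 in control libraries against 394, 528 and 466 in cKO libraries (log2 fold change -0.30, SE 0.16). Here cKO 2 and cKO 3 lay between control 1 and control 2, so the groups overlapped although each same-numbered pair was lower in the cKO library. Mrpl42 had 598, 771 and 708 in control libraries against 438, 705 and 636 in cKO libraries (log2 fold change -0.24, SE 0.18). Mrpl1, the protein of the mobile L1 stalk beside the site where tRNA leaves, had 486, 530 and 553 in control libraries against 347, 505 and 498 in cKO libraries (log2 fold change -0.23, SE 0.15). Mrps33 had 149, 207 and 196 in control libraries against 137, 170 and 161 in cKO libraries (log2 fold change -0.23, SE 0.17). Without cKO 1, the log2 fold change was -0.04 for Mrpl42, -0.06 for Mrpl1, -0.19 for Mrpl20 and -0.14 for Mrps33. Without control 1 it was -0.46 for Mrpl20 and -0.37 for Mrps33. The limma adjusted p was 0.978 for each of them and for Mrps28.

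Positive fold changes were seen in 11 members, 8 Mrpl and 3 Mrps. Mrps35 had 561, 737 and 712 normalised counts in control libraries against 689, 752 and 761 in cKO libraries (log2 fold change 0.14, SE 0.12). Its control 1 stood low, and the other 5 libraries lay between 689 and 761. Mrpl33 had 1082, 918 and 1112 in control libraries against 1306, 1039 and 1079 in cKO libraries (log2 fold change 0.14, SE 0.12). Mrps16, which has a bacterial counterpart, had 1540, 1162 and 1443 in control libraries against 1775, 1287 and 1420 in cKO libraries (log2 fold change 0.11, SE 0.15). In both genes cKO 1 was the highest library, and the groups overlapped. The log2 fold change of Mrpl33 was 0.04 without cKO 1 and 0.05 without control 2, that of Mrps16 -0.02 and -0.01, and that of Mrps35 0.02 without control 1. Mrps31 (log2 fold change 0.06, SE 0.12) ran from 316 to 367 over controls and from 322 to 386 over cKO libraries. The limma adjusted p was at least 0.978 for these 4 genes.

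**Figure D3:**
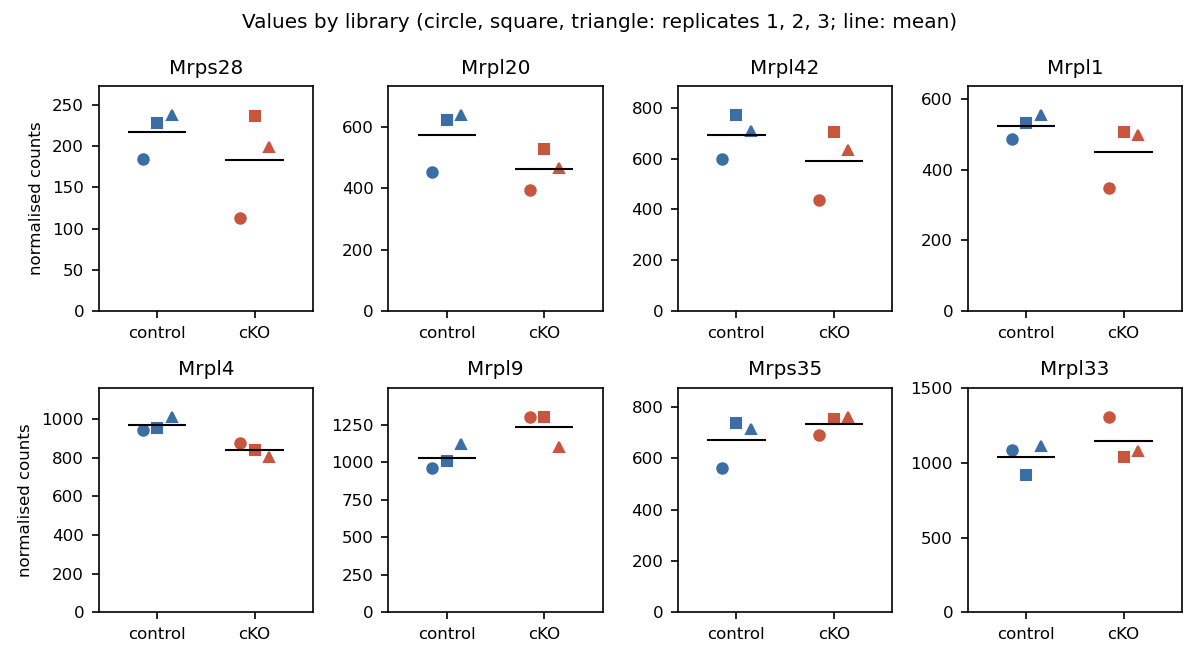
Normalised counts of 8 members in each library (control in blue, cKO in red; circle, square and triangle for replicates 1, 2 and 3), with the mean of each group as a line and axes that start at 0. Mrpl4 separates the groups (803 to 878 in cKO, 944 to 1011 in control), while in Mrps28, Mrpl20, Mrpl42 and Mrpl1 the cKO 1 library is the lowest and the groups overlap.

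By origin, the medians lay close together. The 44 proteins classed here as having a bacterial counterpart had a median log2 fold change of -0.11, with 37 negative. The 30 classed as mitochondria-specific, with Mrps28 among them, had a median of -0.12, with 26 negative. The class of Mrps28 is uncertain, and the medians were not taken with it in the other class. Mrps36 belongs to neither class: it is now known as a subunit of the 2-oxoglutarate dehydrogenase complex and not of the ribosome. Its normalised counts were 178, 139 and 183 in control libraries against 139, 135 and 165 in cKO libraries (log2 fold change -0.18, SE 0.16), so the groups overlapped. Mrps30 and Mrps18a carry small subunit names but sit in the large subunit. The fold change of Mrps30 was -0.18 on the log2 scale (SE 0.15), and the gene was lowest in cKO 1, at 472, while its other libraries held 594 to 718. Counted by place in the ribosome, 48 large subunit genes had a median of -0.10 and 26 small subunit genes a median of -0.14.

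By site within the ribosome, the medians were negative as well. All 7 members placed here at the central protuberance, the protruding top of the large subunit, had negative fold changes (median -0.06). These were Mrpl18, Mrpl27, Mrpl38, Mrpl40, Mrpl46, Mrpl48 and Mrpl52, and 1 of them (14.3%) was lower in all 3 pairs, against 21.8% of tested genes. Of the proteins placed at the peptide exit tunnel, 5 of 7 were negative, with a median of -0.09, and 5 (71.4%) were lower in all 3 pairs. Among them Mrpl45, which anchors the ribosome to the inner membrane, had 929, 1047 and 987 normalised counts in control libraries against 863, 989 and 985 in cKO libraries (log2 fold change -0.06, SE 0.09). Mrpl23 had 208, 262 and 262 in control libraries against 199, 245 and 236 in cKO libraries (log2 fold change -0.10, SE 0.14).

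The factor-binding stalk recruits translation factors to the ribosome. Of the 4 members placed there, 3 had negative fold changes (median -0.11) and 2 (50%) were lower in all 3 pairs. Mrpl12, the stalk protein itself, had 307, 399 and 443 normalised counts in control libraries against 371, 401 and 405 in cKO libraries (log2 fold change 0.05, SE 0.14). Mrpl10, which holds it in place, had 1032, 909 and 972 in control libraries against 1022, 833 and 857 in cKO libraries (log2 fold change -0.11, SE 0.10). Mrpl11, at the base of the stalk, had 419, 455 and 457 in control libraries against 403, 378 and 448 in cKO libraries (log2 fold change -0.12, SE 0.10). The groups overlapped in all 3 genes. Mrps12, which lines the decoding site of the small subunit, had 233, 230 and 273 in control libraries against 236, 235 and 195 in cKO libraries (log2 fold change -0.14, SE 0.13), and only cKO 3 lay below the controls.

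The 3 Mrps18 paralogs, which descend from a single bacterial protein and occupy different places in the ribosome, had fold changes of the same sign. In the classes by origin above, only Mrps18c was counted as having a bacterial counterpart. Mrps18a and Mrps18b were counted as mitochondria-specific. Mrps18a had 383, 514 and 547 normalised counts in control libraries against 408, 475 and 469 in cKO libraries (log2 fold change -0.08, SE 0.15). Mrps18b had 151, 205 and 224 in control libraries against 127, 232 and 155 in cKO libraries (log2 fold change -0.20, SE 0.25). Mrps18c had 616, 632 and 656 in control libraries against 566, 628 and 567 in cKO libraries (log2 fold change -0.11, SE 0.09). Mrps18b was the most variable between libraries and Mrps18c the least. Reads that fit more than 1 paralog could be split by the counting, and the setting for such reads is not stated in any source used here.

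Mrpl44, an RNase III-like protein of the large subunit, separated the groups. It had 578, 652 and 617 normalised counts in control libraries against 521, 562 and 532 in cKO libraries (log2 fold change -0.19, SE 0.09, 95% interval -0.40 to 0.01; limma adjusted p = 0.978). Mrps23 did so with less spread, at 1051, 1076 and 1093 in control libraries against 985, 982 and 945 in cKO libraries (log2 fold change -0.14, SE 0.07). Mrpl30, the member with the highest normalised counts, had 1885, 1885 and 1961 in control libraries against 1759, 1781 and 1876 in cKO libraries (log2 fold change -0.08, SE 0.07). In Mrpl30 the gap between the highest cKO library and the lowest control was small beside the range within each group. Mrpl46 and Mrps11 start close together on opposite strands and share exon bases (12.2% and 7.97% of each); their fold changes were -0.17 (SE 0.14) and -0.11 (SE 0.17).

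The Y-linked share was tried as a numeric covariate in limma, since the libraries of a group differed in it. It is the share of reads on the 4 Y-linked genes, relative to the highest library. The groups differed in it as well: cKO 2 and cKO 3 (193 and 189 RPM) lay above every control (131 RPM at most). The covariate was thus partly aligned with genotype, and what this adds to the adjusted fold changes was not tested. With it, 8 members (10.7%) passed an adjusted p of 0.05, all of them lower in the cKO libraries, while 826 genes (6.5% of those tested) passed, of which 617 (4.86%) were lower. The 5 large subunit genes, with their covariate-adjusted log2 fold change and limma adjusted p, were Mrpl42 (-0.45, 0.0179), Mrpl20 (-0.44, 0.0485), Mrpl1 (-0.38, 0.0446), Mrpl35 (-0.33, 0.0364) and Mrpl16 (-0.32, 0.0415). The 3 small subunit genes were Mrps28 (-0.58, 0.0459), Mrps14 (-0.41, 0.0187) and Mrps22 (-0.38, 0.0399). These genes have raw values that overlap between groups, except Mrpl16, which had 605, 704 and 638 normalised counts in control libraries against 494, 603 and 572 in cKO libraries. With edgeR and the same covariate, 670 genes were called (5.28%), and 4 members, a share of members close to that background. Of the 8 members called by limma, 3 passed with edgeR (Mrpl35, Mrpl42 and Mrps14) and 5 did not (Mrpl1, Mrpl16, Mrpl20, Mrps22 and Mrps28, with edgeR adjusted p of 0.0535 to 0.0638). The other member called by edgeR was Mrps16, higher in the cKO libraries (log2 fold change 0.29, edgeR adjusted p = 0.0477). The calls depended on single libraries: 0 members passed without control 2, without cKO 1 or without cKO 3, 2 passed without control 3 or without cKO 2, and 8 passed without control 1. The Y-linked share and the first principal component set the same pair of libraries aside, so they cannot be told apart.

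Levels were compared between members only per kb of exon, as the mean of the 6 libraries. With the merged exons of each gene as its length, the median was 225 normalised counts per kb over the members, 273 for Mrpl and 126 for Mrps genes. Levels ran from 46.0 per kb for Mrps34 to 807 per kb for Mrps21. Cytosolic ribosomal proteins, measured the same way, had a median of 12752 per kb. After Mrps21, the highest levels per kb were those of Mrpl34 (737), Mrpl18 (714), Mrpl54 (693) and Mrps23 (655). The lowest besides Mrps34 were Mrpl23 (48.1) and Mrps25 (55.1). Length mattered: per kb of the longest coding transcript the median was 374, and the 5 highest members of both orders shared only Mrps21, while the 10 highest shared 7. Across the 75 members, Pearson's r of log2 levels between both lengths was 0.73, and these points share their counts.

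Normalised counts of the members were ordered similarly in all libraries. Across members, r of log2(normalised count + 1) between any pair of libraries was 0.94 to 0.99. These values were not divided by length, so differences in gene length between members enter this r. Mrps21, the member with the highest level per kb of merged exons, had 579, 648 and 620 normalised counts in control libraries against 576, 577 and 581 in cKO libraries. For the low end, 77.8% of the exon bases of Mrps34 are shared with Mapk8ip3 and Nme3, and 69.8% of those of Mrps25 with Nr2c2. In all, 31 members share exon bases with another gene, 17 of them more than 10% of their length. The strand setting of the counting is not stated in any source used here, so reads of such overlaps could be split or lost. Mrps34, a small subunit protein, was the member with the fewest reads, with 83.4, 99.0 and 114 normalised counts in control libraries against 88.4, 92.2 and 92.6 in cKO libraries.

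**Figure D4:**
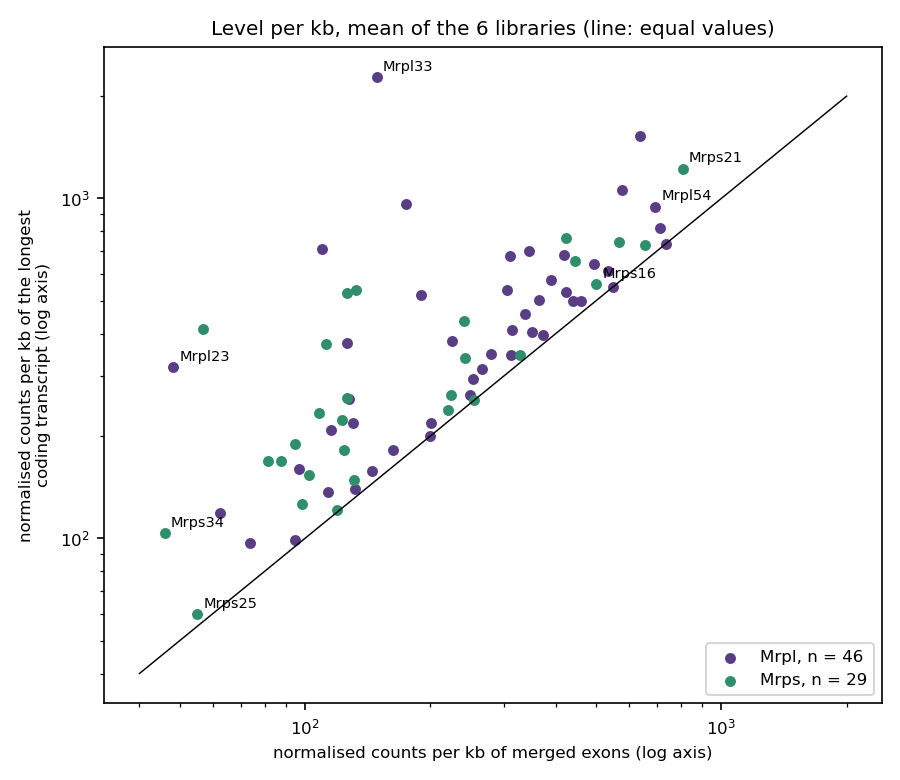
Level of each member as the mean of 6 libraries, in normalised counts per kb of merged exons (x axis, log) and per kb of the longest coding transcript (y axis, log), Mrpl in purple and Mrps in green; the line marks equal values. Mrps21 is high on both axes, Mrps34 and Mrps25 are low on both, and Mrpl33 and Mrpl23 lie far above the line.

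Promoters of mitoribosomal genes are known to hold sites of nuclear respiratory factor 1 (NRF1), of ETS family factors such as GABP, and of YY1, which act on many nuclear genes for mitochondrial proteins. RefSeq windows (GRCm38.p6) of 250 bases before and 50 after each start were found for 66 of the 75 members, in 72 windows. The following sequences hold the 150 bases before the annotated start, written 5′ to 3′ on the strand of the gene, and capitals mark a motif match. They show the members with the largest positive fold change (Mrpl9), with separated groups (Mrpl44), and with a call under the covariate (Mrpl42 with limma and edgeR, Mrps22 with limma but not edgeR). Mrpl9 (chr3:94443186-94443335, plus strand) and Mrpl44 (chr1:79775868-79776017, plus strand) match the NRF1 core, Mrps22 (chr9:98601680-98601829, minus strand) matches the ETS core, and Mrpl42 (chr10:95501950-95502099, minus strand) matches none of the motifs searched.
Mrpl9: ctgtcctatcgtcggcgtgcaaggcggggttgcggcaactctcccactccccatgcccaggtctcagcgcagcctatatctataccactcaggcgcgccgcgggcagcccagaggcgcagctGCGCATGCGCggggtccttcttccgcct
Mrpl44: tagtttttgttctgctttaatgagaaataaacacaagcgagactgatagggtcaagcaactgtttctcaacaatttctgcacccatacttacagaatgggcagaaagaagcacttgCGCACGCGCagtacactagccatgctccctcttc
Mrps22: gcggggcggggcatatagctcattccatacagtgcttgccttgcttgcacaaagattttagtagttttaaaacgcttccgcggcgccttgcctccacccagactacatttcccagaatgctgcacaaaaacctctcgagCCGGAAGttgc
Mrpl42: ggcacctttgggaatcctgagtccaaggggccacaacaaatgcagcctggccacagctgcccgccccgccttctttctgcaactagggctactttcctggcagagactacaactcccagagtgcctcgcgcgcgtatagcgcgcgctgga
In Mrpl9 the capitals span overlapping matches on both strands. The matches begin 28, 34 and 11 bases before the start in Mrpl9, Mrpl44 and Mrps22.

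Motif letters were searched on both strands and are descriptions of sequence, not measured binding. The NRF1 core, GCGCNTGCG, was held by 23.6% of member windows, 13.5% of the windows of tested genes and 6.31% of all windows. The ETS core, CCGGAAG, was held by 31.9% of member windows, against 18% and 8.86%. The YY1 core, ATGGCGG, was held by 16.7%, against 8.09% and 4.06%. The E-box CACGTG, the motif of MYC and MAX, was held by 9.72% of member windows and 9.90% of the windows of tested genes. By gene it was held by 7.58% of members and 11.8% of tested genes, as overlapping windows of Mrpl2 hold the same site. Of the first 3 motifs, at least 1 stood in the windows of 41 of the 66 members (62.1%), against 39.2% of tested genes with a window. The share was 62.5% for nuclear-encoded respiratory chain genes and 58.9% for cytosolic ribosomal protein genes, so it was not particular to the members. Between the subunits, the ETS core stood in 26.7% of Mrpl and 40.7% of Mrps windows and the NRF1 core in 26.7% and 18.5%. Windows of cytosolic ribosomal proteins held the ETS core in 36.4%, the NRF1 core in 10.6% and the YY1 core in 18.2%. For nuclear-encoded respiratory chain subunits the shares were 23.2% (ETS), 34.8% (NRF1) and 15.9% (YY1).

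Medians of members with and without a motif lay close together. The median log2 fold change was -0.09 over the 17 members with the NRF1 core and -0.12 over the 49 without it. It was -0.10 over 23 members with the ETS core and -0.11 over 43 without, and -0.16 over 12 members with the YY1 core and -0.11 over 54 without. These are descriptions, with no test. The genes of the factors themselves stood close to control: the log2 fold changes were 0.04 (SE 0.08) for Nrf1, -0.06 (SE 0.08) for Gabpa and 0.02 (SE 0.07) for Yy1.

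**Figure D5:**
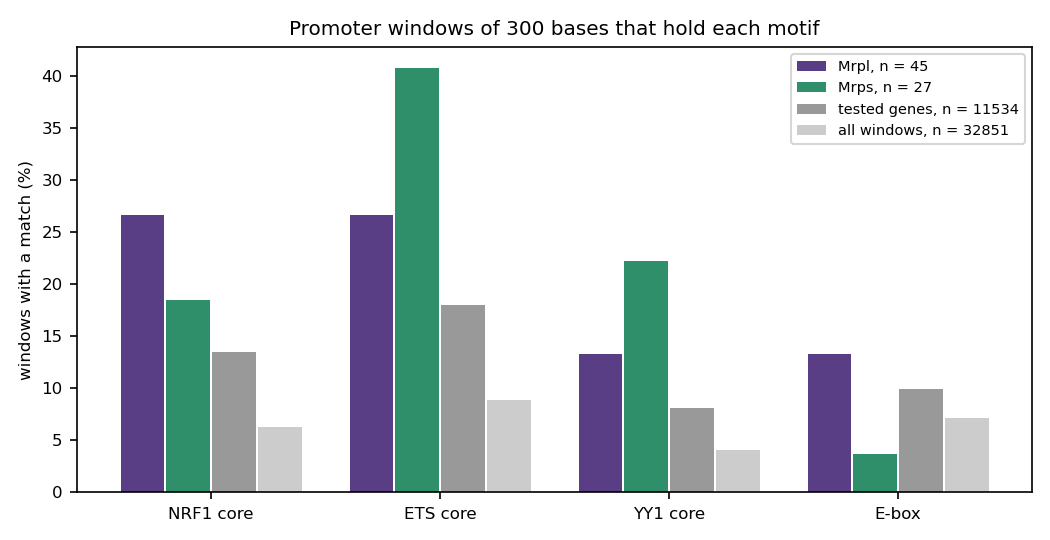
Share of 300-base promoter windows (percent, axis from 0) that hold each motif, for Mrpl windows (n = 45), Mrps windows (n = 27), windows of tested genes (n = 11534) and all windows (n = 32851). The NRF1, ETS and YY1 cores stand in a larger share of member windows than of all windows, and the E-box in 13.3% of Mrpl and 3.70% of Mrps windows. Overlapping windows of Mrpl2 hold the same E-box, and by gene the shares are 10% of 40 Mrpl and 3.85% of 26 Mrps members.

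Other genes of mitochondrial translation were read in the same way, and 0 of each list passed the limma test (445 tested genes, or 3.5%, had an unadjusted p under 0.05). Among 7 mitoribosomal proteins with other names, 5 were negative and the median log2 fold change was -0.10. Ptcd3, a small subunit protein, had 649, 814 and 814 normalised counts in control libraries against 487, 757 and 608 in cKO libraries (log2 fold change -0.31, SE 0.17). Aurkaip1, also of the small subunit, had 1238, 1202 and 1401 in control libraries against 1144, 1147 and 1122 in cKO libraries (log2 fold change -0.17, SE 0.08), with no overlap. Of 27 genes for mitoribosome assembly and rRNA modification, 14 were negative, with a median of -0.02. Fastkd2, which takes part in assembly of the large subunit, had 224, 299 and 254 in control libraries against 164, 245 and 207 in cKO libraries (log2 fold change -0.34, SE 0.18). Rnmtl1, an rRNA methyltransferase, was at -0.25 on the log2 scale (SE 0.20). The median of the assembly genes was close to that of all tested genes.

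Translation factors showed no common direction, with 7 of 14 tested negative and a median of -0.01. The initiation factor gene Mtif3 stood at a log2 fold change of 0.19 (SE 0.12), and Metap1d, which removes the initial methionine, at -0.20 (SE 0.20). Of 20 aminoacyl-tRNA synthetase genes, 11 were negative, with a median of -0.03. Rars2, the arginine enzyme, had 433, 427 and 443 normalised counts in control libraries against 354, 372 and 360 in cKO libraries (log2 fold change -0.26, SE 0.09), with no overlap. Lars2, the leucine enzyme, had 612, 788 and 770 in control libraries against 1276, 2177 and 679 in cKO libraries (log2 fold change 0.78, SE 0.36). Its high values were those of cKO 1 and cKO 2, while cKO 3 lay within the controls.

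Of 20 genes for mitochondrial transcription and RNA processing, 14 were negative, with a median of -0.07. Fastkd3 had 217, 202 and 184 normalised counts in control libraries against 157, 153 and 176 in cKO libraries (log2 fold change -0.31, SE 0.13), with no overlap, and Tfb2m, a mitochondrial transcription factor, was at -0.25 on the log2 scale (SE 0.29). The mRNAs that the mitoribosome translates were measured for 9 of 13 mitochondrially encoded genes, and 6 were negative (median -0.10). They varied far more between libraries than the members did, with median deviations of 0.04, -0.12 and 0.33 for controls and -0.51, -0.21 and 0.48 for cKO libraries. The groups overlapped widely, and cKO 1 was lowest here too. Examples are mt-Nd2 (log2 fold change -0.38, SE 0.27) and mt-Co3 (0.39, SE 0.57).

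Regulators of mitochondrial gene expression gave a median of -0.02, with 6 of 10 tested negative. Myc, which drives ribosome and mitochondrial biogenesis in activated T cells, had 3070, 3942 and 3411 normalised counts in control libraries against 2558, 3222 and 2818 in cKO libraries (log2 fold change -0.28, SE 0.12). Pprc1, a coactivator of NRF1, had 1397, 1817 and 1590 in control libraries against 941, 1658 and 1442 in cKO libraries (log2 fold change -0.28, SE 0.20). Each same-numbered pair was lower in the cKO library for both genes, although the groups overlapped. With the Y-linked covariate, under which limma called 6.5% of all tested genes, Myc (adjusted p = 0.0214), Pprc1 (0.0112) and Max (0.018) were called. It also called Ptcd3 (0.0297), Fastkd2 (0.0327), Noa1 (0.0496), Lrpprc (0.0222) and mt-Nd1 (0.0485) from the lists above, each lower in the cKO libraries. The 826 calls of that fit fell to 10 without cKO 1 and to 89 without control 2.

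Other large gene families were described beside the members, whose 85.3% negative fold changes and median of -0.11 are given above. Of 77 tested nuclear-encoded respiratory chain genes, 57 (74.0%) had a negative fold change and the median was -0.06. Of 76 cytosolic ribosomal protein genes, 19 (25.0%) had a negative fold change and the median was 0.05. Per library, cytosolic ribosomal proteins deviated by -0.00105, -0.12 and 0.03 for controls and by 0.18, -0.04 and -0.05 for cKO libraries. Library cKO 1, where mitoribosomal transcripts were lowest, was thus the highest for the cytosolic ribosome. With the Y-linked covariate limma called 3 cytosolic ribosomal genes (3.95%), a share below the 6.5% of all tested genes called in that fit. They were Rpl37a (limma adjusted p = 0.0117), Rplp2 (0.0425) and Rps6 (0.0498), all higher in the cKO libraries. These differences between families were described and not tested.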

How the data were processed

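RNA of sorted Th1 cells was made into libraries with an Illumina TruSeq kit, per the labels' protocols. STAR, HTSeq, DESeq2 and the build mm10 are named in the submitters' processing notes; no source used here gives versions, settings or strand use. The deposited signal value of a gene is its read count divided by 1 size factor per library: 100% of values were whole multiples of the smallest step, to within 0.01.

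Values over 10 in at least 3 libraries were tested, 12699 genes, on the log2(value + 1) scale with limma 3.58.1 (trended prior variance, R 4.3.3). The model held genotype alone, and p-values were adjusted by Benjamini-Hochberg over all tested genes, at 0.05. Fold changes on this scale are understated for low genes. The labels do not document separate cultures or animals, so a p-value here reflects library-to-library spread of unknown origin; as libraries with and without Y-linked reads stand in each group, the replicates of a group are not all technical repeats of 1 sample. Alternatives used recovered reads (edgeR 4.0.16, DESeq2 1.42.0, limma-voom), other scalings, filters (none, 50), pseudocounts (0.1, 5), array weights, a Y-linked covariate, a replicate block and each library left out. The scripts were tested on simulated data, drawn for each gene on its own. Such data lack the shared deviations between libraries seen here, so how the fits handle those was not tested.

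Same-numbered libraries deviated together from their group means (r = 0.579, 0.458 and 0.188 for numbers 1, 2 and 3). As each r was over 0.1, the numbers were taken as pairs in the pair counts and the replicate block. The main model, with its intervals and SEs, did not use them. This pairing was read from the same values that it was then applied to. The libraries cKO 3 and control 2, of different numbers, correlated more (r = 0.272) than the pair of number 3, the labels give no pairing, and deviations of 3 libraries sum to 0.

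The members, gene lists, motifs and rule for named genes were chosen with earlier results of these data known. Given with their values are the 5 largest positive and negative fold changes, members at an unadjusted p under 0.05, the extremes per kb and members fixed by role; of each other list, the 2 largest fold changes among genes with a mean of at least 50 and any called. Values were also given for Mrpl30, Mrpl46, Mrps11, Mrpl16, Mrps23, Nrf1, Gabpa and Yy1, chosen after they were seen. Positions come from GENCODE M21 (GRCm38, the assembly of mm10). Read counts of 86 to 2035 per member and library give a counting SD of 2.31% to 10.3%.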

Additional observations from a re-analysis of the deposited data

How the results depend on the processing

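No member was called on genotype alone under any scaling, filter, pseudocount or tool tried, with any library left out, or with the replicate block. Over all genes, 0 were called with each scaling, filter, pseudocount, edgeR and limma-voom, 2 with DESeq2, 1 with array weights, 1 with the replicate block, and 0 to 1 with a library left out. The replicate block changed no call of a member; 15 members then had an unadjusted limma p under 0.05 (20% of members, against 12.6% of tested genes). With the Y-linked covariate 826 genes and 8 members were called, with edgeR and the covariate 670 and 4. Chosen after seeing the data were edgeR with the covariate, the covariate with a library left out, and both replicates 1 left out. The covariate without control 1, 2 or 3 called 935, 89 and 558 genes and 8, 0 and 2 members; without cKO 1, 2 or 3 it called 10, 561 and 200 genes and 0, 2 and 0 members. Without control 1 and cKO 1 both, 1 gene was called. The median fold change of the Mrpl genes stayed between -0.15 and -0.05 with a library left out and that of the Mrps genes between -0.19 and -0.05. The Mrpl median minus the Mrps median ran from -0.00293 to 0.0599 with a library left out, was 0.0785 with the covariate without control 2, and 0.00406 without both replicates 1. Over all 75 members, 2 to 11 changed sign with a library left out (11 without cKO 1, of which 9 from negative to positive, and 6 without control 1, all from positive to negative) and 1 to 4 with another scaling. Of the 11 members given by fold change or p, 4 changed sign: Mrps31 (-0.00307 to 0.147 with a library left out, the lowest without control 1; -0.17 with the covariate without cKO 1, -0.0398 without both replicates 1), Mrps16 (-0.01 without control 2, -0.0217 without cKO 1, and -0.0217 to 0.21 over the libraries left out), Mrps28 (-0.522 to 0.0112 with a library left out, the highest without cKO 1) and Mrps35 (-0.00638 with the covariate without control 1, -0.18 with the covariate without cKO 1). The median level per kb moved from 225 to 374 with the longest coding transcript as length. The cause of these changes was not tested. Members held 86 to 2035 reads per library, and their variance between libraries exceeded counting error for all but 4 of 75 (median variance to mean ratio 4.48), so replicate spread rather than depth limits the precision.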
